A study of Mus musculus with 38 samples.

Results

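The coverage that an antibody to LAP2B left in EpiLCs lacking the lamins and LBR was set against the background of the same assay in WT EpiLCs. The 6 libraries compared were taken by their labels, the 3 LAP2B libraries of QKO EpiLCs and the 3 IGG libraries of WT EpiLCs, out of 36 libraries with values in the tables and 38 samples in the series. The study asked how mouse pluripotent cells place heterochromatin once proteins of the nuclear envelope are removed. CUT&RUN, in which a nuclease tethered by an antibody releases the DNA near its target, was run on naive mES cells and on EpiLCs, with antibodies to LAP2B and LMNB1 and with an IGG control.

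QKO cells lacked lamin A/C, lamin B1 and lamin B2 (Lmna, Lmnb1, Lmnb2) and carried deletions in both alleles of Lbr. The study's supplement gives one deletion as a frameshift and the other as in-frame. At the protein level the study reports LBR depletion by western blot and no detectable LBR by immunostaining. The QKO cells were a single surviving clone made from lamin triple-knockout (TKO) mES cells. The WT line came from a littermate of the TKO line. LBR KO cells, used below for the level of chromosome 6 only, were made from the WT line by frameshift changes in Lbr. EpiLCs of all these genotypes were made from mES cells in 48 h with FGF at 20 ng/mL and activin A at 12 ng/mL. In each of 3 replicates 200000 cells were used. The LAP2B libraries used an antibody to LAP2. The IGG control, a rabbit antibody to mouse IgG, was run in WT cells and not in QKO cells, so antibody and genotype cannot be told apart in the comparison. The study's karyotypes gave trisomy 8 in the TKO line, in part also with loss of the Y chromosome, and minor WT populations without the Y chromosome, one of them with trisomy 6 and 8 as well. CUT&RUN reads are genomic DNA, so neither the EpiLC state nor the knockouts can be checked from markers in these values.

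LAP2B is an inner nuclear membrane protein that binds lamins and chromatin. The lamina is the meshwork of A-type and B-type lamins beneath that membrane, and LBR is a membrane protein that binds B-type lamins and heterochromatin. Lamina-associated domains are gene-poor, AT-rich stretches of the genome that lie against the envelope, and receptor gene clusters and very long neuronal genes are typical of them. EpiLCs resemble the primed epiblast that follows the naive state.

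Each value was the sum of spike-in scaled coverage over the 1 kb bins that a gene touches, so longer genes had larger values and levels were compared only per bin. Unless stated otherwise a value was divided by that of the median gene of its library, called the relative value, and differences are QKO LAP2B minus WT IGG on the log2(relative value + 0.1) scale. The gene values came to 28218939 to 36816402 reads in the QKO libraries and to 14058614 to 36280278 in the IGG libraries, a read being counted once in every gene whose bins held it. The median gene held 88 to 114 reads in the QKO libraries and 43 to 108 in the IGG libraries. IGG replicate 2, the shallowest library, stood apart on the spike-in scale. Labels number the replicates without saying that they were separate cultures, so the p-values measure the spread between these libraries.

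On the spike-in scale, the QKO LAP2B libraries lay inside the range of the IGG libraries. Their mean value per gene was 6.52, 5.92 and 6.03 in QKO EpiLCs (6.16 ± 0.322, SD, n = 3) and 3.62, 8.03 and 3.08 in IGG (4.91 ± 2.71, SD, n = 3). The difference of 0.46 log2 units gave p = 0.4 (two-sided exact permutation test, adjusted p = 0.5 over 4 such measures), where 3 against 3 libraries cannot go below 0.1. Without IGG replicate 2 the groups did not overlap and the difference was 0.88 (exact permutation p = 0.1, the smallest possible). LAP2B in WT EpiLCs reached 12.4 ± 2.45 (SD, n = 3) on this scale. The constant used in the spike-in scaling is stated by the study for LAP2B and not for IGG, so levels set across antibodies carry that limit.

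Relative coverage of LMNB1-rich genes was lower in QKO LAP2B than in the background. Genes were ranked by LMNB1 coverage per bin in WT EpiLCs, from libraries of neither group, and the lamina contrast was the log2 ratio of mean coverage in the LMNB1-richest of 4 equal classes to that in the poorest. It was 0.12, 0.09 and 0.13 in QKO LAP2B and 0.27, 0.19 and 0.23 in IGG, with no overlap between the groups. The difference was -0.12 (exact permutation p = 0.1, the smallest possible, adjusted p = 0.4). With class medians in place of means the ratio was negative in every library of both groups. It was -0.18, -0.19 and -0.15 in QKO LAP2B and -0.09, -0.09 and -0.04 in IGG, so a tilt towards LMNB1-rich genes held for means only. The lamina contrast, by means, stood at 0.89 ± 0.18 (SD, n = 3) for LAP2B and at 1.53 ± 0.17 (SD, n = 3) for LMNB1 in WT EpiLCs. Naive QKO LAP2B gave -0.26 ± 0.05 (SD, n = 3) against 0.43 ± 0.19 (SD, n = 3) in naive IGG. In EpiLCs the study did not rely on LAP2B to stand for lamina-associated domains, its WT signal lying both inside and outside them.

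Without adjustment for depth, coverage in QKO EpiLCs was about as uneven over genes as the background. The SD over genes of log2 coverage per bin was 0.68 ± 0.04 (SD, n = 3) in QKO LAP2B and 0.62 ± 0.08 (SD, n = 3) in IGG, a difference of 0.06 (exact permutation p = 0.5). By library the SD over genes was 0.71, 0.69 and 0.64 in QKO LAP2B and 0.69, 0.65 and 0.53 in IGG. The smallest belonged to IGG replicate 3, the deepest IGG library. Sampling of reads adds to this measure, and the part of depth was not tested. In naive cells the SD over genes was 1.12 ± 0.13 in QKO LAP2B and 0.56 ± 0.09 in IGG (SD, n = 3 each).

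**Figure D1:**
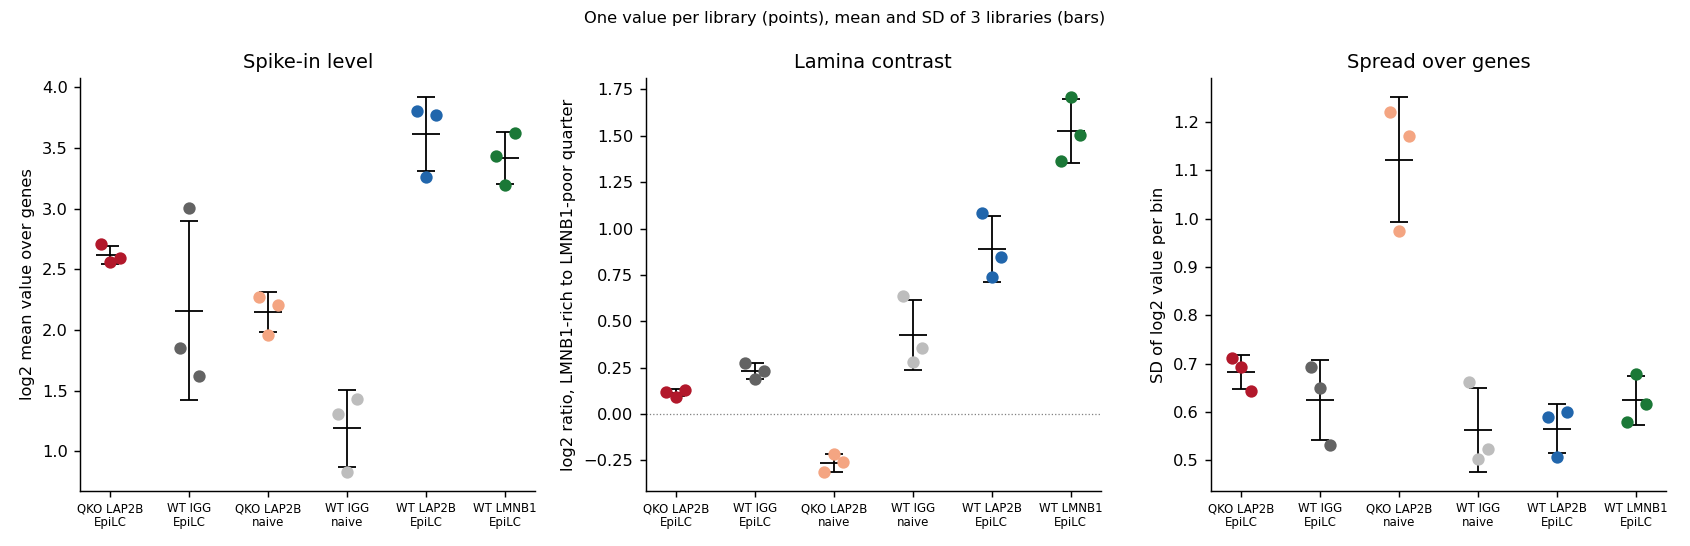
Spike-in level (left, log2 of the mean value over genes), lamina contrast (centre, log2 ratio of LMNB1-rich to LMNB1-poor genes) and spread over genes (right, SD of log2 value per bin) in each library, with points for libraries and bars for the mean and SD of 3. In EpiLCs the QKO LAP2B points lie within the IGG range for level and below all 3 IGG points for lamina contrast, whereas naive QKO LAP2B stands apart from naive IGG in contrast and spread.

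Ranked over genes, QKO LAP2B libraries resembled the IGG libraries about as much as IGG libraries resembled each other. Across 70312 of the tested genes, those with coordinates in the annotation, Spearman's rho of coverage per bin was 0.61 to 0.74 over the 9 QKO and IGG pairs and 0.61 to 0.71 over the 3 IGG pairs. Over the 28589 genes of at least 10 bins, which hold more reads, it was 0.79 to 0.87 and 0.83 to 0.87. QKO libraries were closer to each other, at 0.93 to 0.95 over these longer genes, and with the QKO LAP2B libraries of naive cells they reached 0.85 to 0.90 (0.76 to 0.81 over all 70312 genes). Against LAP2B of WT EpiLCs they reached 0.09 to 0.42, and against LMNB1 -0.24 to -0.05. These are descriptions across genes, which share libraries, mappability and base composition and are not independent. Depth differed between libraries, and its part in these correlations was not tested.

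Single genes nevertheless differed between QKO LAP2B and IGG, mostly by small amounts. Of 70381 genes tested, 4053 (5.76%) passed limma at an adjusted p of 0.05, of which 2781 (3.95%) were higher and 1272 (1.81%) lower in QKO LAP2B. Over all genes the difference had an SD of 0.31 and lay between -0.48 and 0.53 for the middle 90% of genes. The libraries of the groups did not overlap for 16072 genes (22.8%), 8931 (12.7%) higher and 7141 (10.1%) lower. A 2-fold difference was passed by 346 genes (0.492%), 177 up and 169 down. In naive cells the SD was 0.83 and 16916 genes (24.0%) were past 2-fold, and in WT EpiLCs LAP2B minus IGG had an SD of 0.44 and LMNB1 minus IGG one of 0.67. On the spike-in values as deposited, the median gene lay 0.40 higher in QKO LAP2B and 21 genes passed, 16 higher and 5 lower. With all genes kept, without a filter on low values, 130 passed. By quantile normalization 4710 passed, 2749 higher and 1961 lower, and by edgeR on recovered reads 5006, 3118 higher and 1888 lower.

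The count also turned on single libraries. It was 6864 without IGG replicate 1, 2571 without IGG replicate 2, 2866 without IGG replicate 3, 1137 without QKO replicate 1, 1105 without QKO replicate 2 and 3133 without QKO replicate 3. A core of 857 genes (21.1% of 4053) passed with all libraries and in each of these 6 fits, 665 of them higher and 192 lower.

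**Figure D2:**
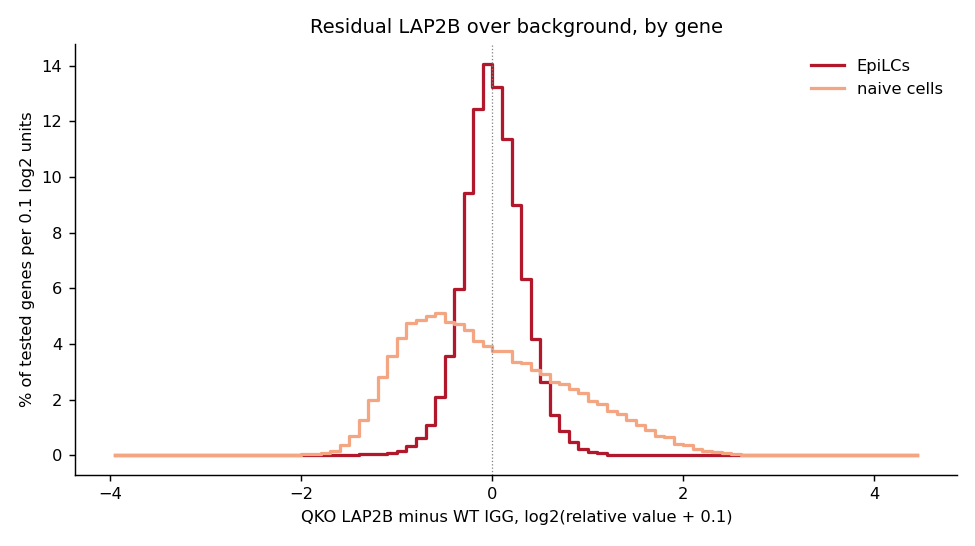
Percent of the 70381 tested genes (vertical axis, per 0.1 log2 units) at each QKO LAP2B minus WT IGG difference on the log2(relative value + 0.1) scale (horizontal axis), in EpiLCs and in naive cells. The EpiLC curve is narrow around 0, with an SD of 0.31, and the naive curve broad and skewed, with an SD of 0.83.

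Protein-coding genes were called more often than other classes, and GC-rich genes leaned upwards. Of 20857 protein-coding genes 2402 (11.5%) were called, 1938 higher and 464 lower, and of 31523 lncRNA genes 1437 (4.56%), 752 higher and 685 lower. The median GC content was 48.4% in genes called higher and 41.8% in genes called lower, against 45.3% in all genes. Over 5 classes of equal size, from the GC-poorest to the GC-richest, the median difference was -0.07, -0.06, -0.02, 0.04 and 0.13, and in naive cells it was -0.68, -0.47, -0.20, 0.12 and 0.57. By LMNB1 class, from poorest to richest, it was 0.05, 0.04, -0.04 and -0.06, where LAP2B minus IGG in WT EpiLCs, with the same IGG libraries, had -0.26, -0.18, 0.06 and 0.44. GC content and LMNB1 coverage vary together along the genome, and their parts were not told apart. After an adjustment of each library for GC content 5309 genes were called.

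Promoters of 5 of the named genes with the smallest adjusted p, 3 higher and 2 lower in QKO LAP2B, are given as examples. Each runs from 250 bases before the gene start to 50 after it, on the strand of the gene, from the GRCm39 genome with GENCODE M39 starts, with every CG in capitals. Tnpo2 lies at chr8:85761708-85762007 (plus strand, 8 CG), Ankrd52 at chr10:128212734-128213033 (plus, 45 CG), Nfe2 at chr15:103166781-103167080 (minus, 7 CG), Pramel33 at chr5:93688010-93688309 (minus, 2 CG) and Itln1 at chr1:171368894-171369193 (minus, 0 CG).
Tnpo2: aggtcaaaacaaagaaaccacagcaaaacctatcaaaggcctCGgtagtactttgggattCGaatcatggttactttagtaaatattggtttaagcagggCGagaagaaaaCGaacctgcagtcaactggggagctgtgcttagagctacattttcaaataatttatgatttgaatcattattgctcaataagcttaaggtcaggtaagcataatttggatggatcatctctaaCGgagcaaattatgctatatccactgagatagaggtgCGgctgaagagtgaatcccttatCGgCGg
Ankrd52: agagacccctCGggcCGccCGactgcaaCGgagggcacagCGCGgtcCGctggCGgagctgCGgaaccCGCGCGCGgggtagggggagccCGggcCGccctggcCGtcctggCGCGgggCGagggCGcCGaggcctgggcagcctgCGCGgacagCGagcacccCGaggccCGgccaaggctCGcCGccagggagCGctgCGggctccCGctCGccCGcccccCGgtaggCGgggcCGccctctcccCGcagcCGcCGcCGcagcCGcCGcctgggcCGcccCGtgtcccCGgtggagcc
Nfe2: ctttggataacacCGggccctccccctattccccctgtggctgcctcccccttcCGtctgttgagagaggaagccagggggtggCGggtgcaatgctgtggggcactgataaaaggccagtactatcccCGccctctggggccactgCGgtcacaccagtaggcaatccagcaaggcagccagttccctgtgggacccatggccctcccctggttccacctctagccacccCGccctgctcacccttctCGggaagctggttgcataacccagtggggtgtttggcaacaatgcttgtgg
Pramel33: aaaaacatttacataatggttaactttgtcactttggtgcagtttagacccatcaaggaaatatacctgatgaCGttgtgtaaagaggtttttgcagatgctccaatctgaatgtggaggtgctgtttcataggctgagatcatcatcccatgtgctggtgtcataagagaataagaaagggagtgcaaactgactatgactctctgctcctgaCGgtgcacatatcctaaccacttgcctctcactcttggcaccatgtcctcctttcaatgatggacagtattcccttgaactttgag
Itln1: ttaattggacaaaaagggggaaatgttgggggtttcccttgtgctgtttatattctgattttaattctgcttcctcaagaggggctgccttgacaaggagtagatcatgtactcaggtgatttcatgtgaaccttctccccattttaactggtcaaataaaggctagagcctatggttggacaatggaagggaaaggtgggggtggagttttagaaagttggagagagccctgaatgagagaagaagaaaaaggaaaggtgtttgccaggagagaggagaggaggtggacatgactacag

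The promoters of genes higher in QKO LAP2B were not all rich in CG. Over all 12 genes named for a higher value they held 1 to 45 CG (median 8). Over the 12 named for a lower value they held 0 to 21 (median 2). At least 45 CG were held by 0.772% of 20853 protein-coding promoters of this length, at least 7 by 57.3%, and 2 or fewer by 20.7%. Among protein-coding genes, those with 0 to 4 CG were called higher in 4.91% and lower in 2.66%, those with 5 to 14 in 10.5% and 2.26%, those with 15 to 24 in 13.3% and 1.44%, and those with 25 or more in 11% and 2.26%. The class with fewest CG also had the lowest median gene GC content, 43.3% against 45.5% to 46.4% in the others. These are descriptions of windows around annotated starts, and draw on values summed over whole genes.

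The largest differences upwards were found at genes of varied function. They were named as the 12 largest among called protein-coding genes of at least 10 bins whose libraries did not overlap, leaving out genes within 1 Mb of one already taken, from 1522 eligible genes. Nfe2, a subunit of an erythroid transcription factor (chr15:103156526-103166830), had relative values of 9.30, 6.55 and 6.62 in QKO LAP2B and 2.75, 3.19 and 3.36 in IGG. The difference was 1.23 ± 0.14 (SE, limma adjusted p = 9.87e-07), and the groups did not overlap, as the rule required. Tnpo2, a nuclear import receptor (chr8:85761958-85784214), had 16.5, 16.9 and 14.6 against 8.10, 6.60 and 8.36. Its difference of 1.05 ± 0.10 (SE, limma adjusted p = 8.17e-08) was the most certain of the 12. Ankrd52, a protein phosphatase subunit (chr10:128212984-128244573), had 17.3, 17.9 and 14.3 against 8.15, 7.53 and 9.30, a difference of 0.98 ± 0.10 (SE, limma adjusted p = 4.63e-07).

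The other genes named for a higher value lay on several chromosomes and were called by the same test. Of all those named, Tnpo2, Xlr4a, Kat8 and Ankrd52 lie in 1 Mb windows that were high as a whole. The medians of these windows were 0.68, 0.64, 0.59 and 0.57, so these differences were in part shared with neighbouring genes. Kat8, a histone H4 acetyltransferase (chr7:127511661-127525009), had 10.5, 10.6 and 7.79 in QKO LAP2B against 4.28, 5.05 and 4.15 in IGG, 1.07 higher. Hsd17b14, a steroid dehydrogenase (chr7:45204256-45217176), had 10.3, 8.95 and 7.66 against 4.29, 4.30 and 4.06, 1.06 higher. Adamtsl4, an extracellular matrix protein (chr3:95583509-95595231), differed by 1.01 and Plxna3, a semaphorin receptor (chrX:73372672-73388295), by 1.18. In each of these the lowest QKO value was above the highest IGG value, which the naming rule required. Xcr1, a chemokine receptor (chr9:123681380-123691094), had 3.59, 3.93 and 3.40 against 1.38, 1.84 and 2.28, 0.98 higher. The remaining named genes held fewer reads. Smim40, a small membrane protein (chr17:34112159-34126155), rested on 19 to 180 reads a library and was 1.11 higher (limma adjusted p = 0.0059). Xlr4a, of an X-linked multicopy family (chrX:72117936-72126140, 17 to 173 reads), was 1.35 higher, Zfp429, a zinc finger gene of a large cluster (chr13:67536024-67547938, 24 to 225 reads), 1.29 higher, and Or14c43, an olfactory receptor (chr7:86109129-86118765, 36 to 256 reads), 1.08 higher. Xlr4a, Zfp429 and Or14c43 have close copies, and reads that map to several copies make their values uncertain.

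In naive cells, 11 of the 12 genes were above 2-fold, from 1.47 for Xlr4a to 2.67 for Adamtsl4 on the log2 scale. In WT EpiLCs, LAP2B minus the same IGG libraries ran from -0.46 for Tnpo2 to 1.01 for Or14c43. It was below 0 for Nfe2 (-0.10), Smim40 (-0.39), Kat8 (-0.29), Hsd17b14 (-0.16), Adamtsl4 (-0.14) and Ankrd52 (-0.17) as well, and above 0 for Xlr4a (0.21), Xcr1 (0.21), Zfp429 (0.18) and Plxna3 (0.03). Or14c43 was the gene not above 2-fold in naive QKO cells, with -0.52 there, 1.01 for LAP2B and 2.05 for LMNB1 over IGG in WT EpiLCs.

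Among the genes that the same rule named for a lower value, a pair of Pramel genes had the largest differences, and the others had varied functions. Pramel33, of a germline and early-embryo gene family (chr5:93629688-93688059), had 1.62, 1.59 and 1.61 in QKO LAP2B and 4.51, 6.44 and 6.58 in IGG, so that it fell by 1.78 ± 0.16 (SE, limma adjusted p = 1.02e-08). Pramel47 (chr5:95453816-95491776) had 1.34, 1.42 and 1.72 against 4.69, 5.67 and 5.60, and fell by 1.77 ± 0.15 (SE, limma adjusted p = 1.02e-08). The QKO libraries lay close together and far below every IGG library in both. Itln1, a lectin of the gut (chr1:171345690-171368943), had 7.81, 7.51 and 8.82 against 13.3, 17.5 and 14.4, a difference of -0.89. Nlrp1b, an inflammasome sensor (chr11:71043928-71121559), had 6.56, 6.19 and 6.53 against 9.79, 11.4 and 11.2, a difference of -0.73. Klrc2, a natural killer cell receptor (chr6:129624459-129637652), had 0.398, 0.518 and 0.444 against 1.04, 1.35 and 1.47, a difference of -1.32. The groups did not overlap in any of these, as the rule required, and Klrc2 held as few as 35 reads in a library.

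Defa30, an intestinal defensin (chr8:21609255-21625621), was 1.24 lower on only 8 to 38 reads a library, and its near-identical copies make it uncertain. Or10ac1, an olfactory receptor (chr6:42512598-42524521), differed by -0.84 and Vmn1r22, a pheromone receptor (chr6:57875111-57885013), by -0.76. Amer2, a Wnt pathway regulator (chr14:60610708-60625646), Serpinb9, an inhibitor of granzyme B (chr13:33187233-33201940), and Zfp551, a zinc finger gene (chr7:12145555-12156685), each differed by -0.71. Mfsd9, a membrane transporter (chr1:40810401-40829859), differed by -0.69. The 12 genes lower in QKO LAP2B were chosen by the same rule, from 380 eligible genes, and 3 of them, Klrc2, Or10ac1 and Vmn1r22, lie on chromosome 6, which was low as a whole. In naive QKO cells the difference was -2.60 for Pramel33, -2.51 for Pramel47, -2.07 for Klrc2 and -1.44 for Itln1. LAP2B minus the same IGG libraries in WT EpiLCs was 0.64, 0.43, 1.22 and 0.45 for these 4 genes. It was above 0 for the other genes named for a lower value, from 0.04 to 0.79, except Amer2 (-0.25) and Mfsd9 (-0.28).

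**Figure D3:**
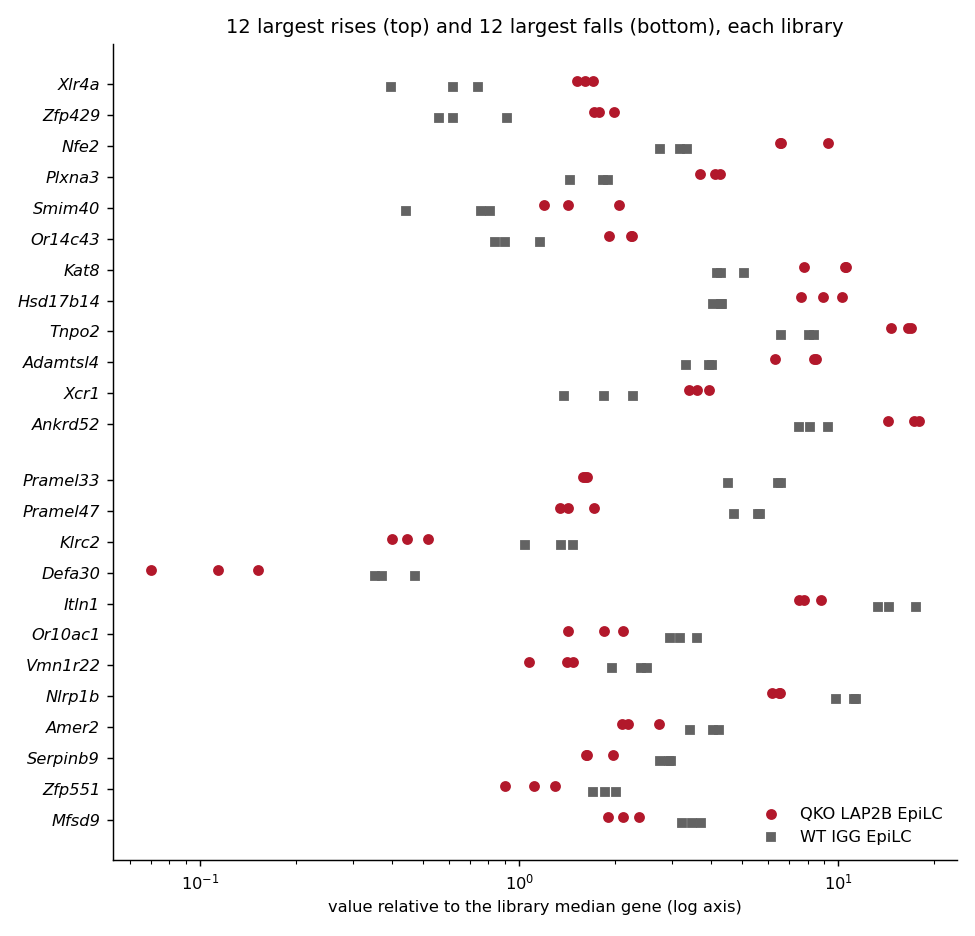
Relative value (horizontal log axis, 1 is the median gene of a library) of the 12 genes with the largest rise and the 12 with the largest fall, each of the 3 QKO LAP2B and 3 WT IGG EpiLC libraries a point. The groups do not overlap for any of the 24 genes, which the rule required, and the widest gaps downwards are those of Pramel33 and Pramel47.

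Of the loci of the deleted genes, Lmna, Lbr and Lmnb2 were not called and Lmnb1 was called lower. Lmna had 15, 14.1 and 11.5 in QKO LAP2B and 18.3, 13.1 and 10.2 in IGG, a difference of -0.00 ± 0.13 (SE, limma adjusted p = 0.991). Lbr had 7.35, 7.96 and 6.07 against 6.26, 6.63 and 7.60, a difference of 0.06, and Lmnb2 8.30, 7.75 and 6.14 against 7.15, 5.47 and 5.06, a difference of 0.33 (limma adjusted p = 0.146). Without IGG replicate 1 Lmnb2 was called higher, by 0.47 (limma adjusted p = 0.0136). Lmnb1 had 10.6, 9.68 and 9.31 against 12.4, 12.5 and 12.5, a difference of -0.34 (limma adjusted p = 0.0307). The Lmnb1 call was lost in 7 of 20 alternatives, among them leaving out any library but IGG replicate 1, and on the spike-in values the Lmnb1 difference was 0.12 and not called. Tmpo, which encodes LAP2B itself, had 9.02, 8.04 and 8.57 against 8.10, 8.33 and 8.19, a difference of 0.06. Coverage of a locus counts nearby antibody target and not the gene's product, so these values do not test the knockouts.

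Of 24 genes for LINC complex members and lamina partners, 6 were called higher and 1, Lmnb1, lower, with a median of 0.15 against 0.00 for all genes. The list includes the deleted genes and Tmpo, whose values are given above. The share called was 29.2%, where it was 5.76% of all genes and 11.5% of protein-coding genes, and no test set the list against other genes. Emd, which encodes emerin, had 2.78, 2.16 and 2.29 in QKO LAP2B against 1.07, 0.744 and 1.31 in IGG, 1.16 higher (limma adjusted p = 0.000545). Cbx5, which encodes heterochromatin protein HP1 alpha, had 20.3, 18.7 and 17.6 against 12.5, 11 and 10.6, 0.73 higher. Prr14, a tether of heterochromatin to the lamina, was 0.54 higher, Nrm (nurim) 0.53, Tm7sf2, a sterol reductase related to LBR, 0.52 and Ankle2, a regulator of envelope reassembly, 0.42. The libraries of the 2 groups did not overlap in any of these genes. In naive cells the same 6 genes differed by 1.34 to 2.19, and in WT EpiLCs LAP2B minus the same IGG by -0.66 to -0.15. Prr14 lies in a 1 Mb window that was high as a whole, with a median of 0.59 over 91 genes.

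Calls among genes of silencing and of innate sensing numbered 1 to 4 a list. Of 15 genes of H3K9 methylation, Uhrf1, a reader of this mark and of hemimethylated DNA, was the only one called, with 9.82, 8.93 and 9.30 against 7.31, 6.21 and 6.74 (0.47 higher). Of 19 genes of retrotransposon silencing, Dnmt1, the maintenance DNA methyltransferase (21.2, 20.9 and 20.7 against 15.3, 14.0 and 14.1, 0.53 higher), the catalytically inactive cofactor Dnmt3l (0.46) and Dnmt3a (0.35) were called. Of 21 genes of nucleic acid sensing and interferon response, the regulators Irf3 (4.03, 4.44 and 3.42 against 2.15, 1.53 and 1.98, 1.04 higher), Irf7 (0.70) and Stat2 (0.55) and the adaptor Mavs (0.56) were called. All of these were higher in QKO LAP2B. Stat2 lies in a 1 Mb window that was high as a whole, with a median of 0.57 over 89 genes. The shares called, 6.67%, 15.8% and 19%, rest on few genes, the first below and the others above the 11.5% of protein-coding genes, and the medians of the 3 lists were 0.10, 0.01 and 0.18.

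Calls among lineage genes differed from list to list. None of 16 naive pluripotency genes was called by limma or by edgeR (median 0.04). At an unadjusted p under 0.05 stood 4 of them, 2 higher and 2 lower, and 13397 of all 70381 genes tested. Of 9 core pluripotency genes Lin28a (0.46), Trim71 (0.36) and Sall4 (0.38) were higher, and of 17 primed epiblast genes Etv4 (0.69), Wnt8a (0.62), Tead2 (0.40), Etv5 (0.39) and Dnmt3a (0.35) were higher. These are 33.3% and 29.4% of the lists, against 11.5% of protein-coding genes called, with medians of 0.16 and 0.19. Etv4, a transcription factor downstream of FGF, had 7.52, 7.88 and 7.79 in QKO LAP2B against 5.13, 4.40 and 4.71 in IGG. Of 20 primitive endoderm genes only Lama1, a basement membrane laminin, was called, lower by -0.28, and of 18 mesoderm genes only Tbx6, higher by 0.88. Of 19 Wnt ligand genes Wnt8a was higher and Wnt2 (-0.38) and Wnt7a (-0.33) were lower, both on chromosome 6. None of 11 trophectoderm genes was called by limma or by edgeR, with 2 at an unadjusted p under 0.05.

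Very long neuronal genes differed in both directions. Of 33 tested, 4 were called higher and 12 lower, with a median of -0.17. The many reads over each gene give small differences a small error, and of all genes of at least 10 bins 10.7% were called. Cdh12, a cadherin, had 171, 172 and 165 in QKO LAP2B against 122, 139 and 151 in IGG, 0.30 higher (limma adjusted p = 0.00453). Sgcz was 0.25 and Csmd3 0.24 higher. Ctnna2, a neuronal catenin, had 119, 120 and 128 against 158, 179 and 185, a difference of -0.51 (limma adjusted p = 7.79e-06), and Grm7 one of -0.46. Of the 12 genes called lower, 5 lie on chromosome 6, among them Ctnna2 and Grm7. In naive QKO cells Cdh12 differed by -0.46 and Ctnna2 by -1.45, whereas LAP2B minus IGG in WT EpiLCs gave 0.78 and 0.61.

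In the Pramel family 16 of 54 members were called lower relative to the median gene and none higher, with a median of -0.40. The share called was 29.6%, beside 5.76% of all genes and 11.5% of protein-coding genes. Summed over members, relative values were 55.6, 54.4 and 58.5 in QKO LAP2B and 75.6, 94.4 and 89.2 in IGG, with no overlap. LAP2B in WT EpiLCs summed to 149, 120 and 127; the IGG sums lay between these and the QKO sums. On the spike-in scale the family's median was 0.02, or -0.38 against the median gene, and none was called. The members are near-identical copies, so they were not independent and reads mapping to several were placed by the authors' alignment.

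Of 27 killer lectin-like receptor genes, all on chromosome 6, 8 (29.6%) were called lower and none higher (median -0.44), and the summed relative value was 53.1, 55.3 and 60.2 in QKO LAP2B against 68.8, 73.6 and 78.3 in IGG. On chromosome 6 as a whole 10.3% of genes were called, and with chromosome medians made equal in every library 2 of the receptors were called lower and the median was -0.22. Of 70 defensin genes 6 were lower, of 113 type 2 vomeronasal receptors 3 were higher and 6 lower, and of 148 type 1 vomeronasal receptors 1 was higher and 2 lower. Olfactory receptors gave 5 higher and 3 lower of 1183 (median -0.03). The shares called in these 4 lists, 8.57%, 7.96%, 2.03% and 0.676%, were below the 11.5% of protein-coding genes, both directions together. The protein-coding calls were mostly higher, 1938 against 464 lower of 20857 genes. Calls lower alone took a larger share of the defensins and of the type 2 vomeronasal receptors than of protein-coding genes. Over the olfactory receptors LAP2B minus IGG in WT EpiLCs had a median of 0.64 and QKO LAP2B minus IGG in naive cells one of -0.75.

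Some members of the clustered protocadherins and of the replication-dependent histones were called higher. Of 59 clustered protocadherin genes, 22 (37.3%, beside 11.5% of protein-coding genes) were called higher and none lower. All 22 belong to the gamma cluster, whose gene spans overlap and share bins, so they are close to 1 observation. Pcdhgc5 of this cluster had 11.7, 11.2 and 9.11 against 6.26, 6.37 and 6.90, 0.70 higher. Of 24 histone genes that passed the filter on low values, out of 68, 5 (20.8%) were higher (median 0.47). Among them was H4c2, with 1.35, 1.89 and 1.28 against 1.00, 0.372 and 0.843, on 16 to 215 reads a library. The 24 genes are short, touching a median of 2 bins. Of 355 Zfp zinc finger genes 33 were higher and 3 lower (10.1% called, median 0.12), and of 86 ribosomal protein genes 5 higher and 1 lower (6.98% called), both shares below the 11.5% of protein-coding genes. Genes with a Mir symbol had 8 higher and 1 lower of 955, the lower one being Mir99ahg, a host lncRNA that the symbol brought into the list and no microRNA. Immunoglobulin V segments had 1 higher and 4 lower of 326, Serpin A and B genes 2 lower of 53, Hox genes 1 lower of 39 and Cyp2 to Cyp4 genes 1 higher of 72. The Hox gene, Hoxa13, lies on chromosome 6, which was low as a whole. The shares called among the Mir, immunoglobulin V, Serpin, Hox and Cyp genes were 0.942%, 1.53%, 3.77%, 2.56% and 1.39%. All lay below the 5.76% of all genes, both directions together. The Serpin and Hox shares, which hold only calls lower, were above the 1.81% of all genes called lower, the Hox share resting on 1 gene. Limma made no call among 154 T cell receptor V segments (11 at an unadjusted p under 0.05, none by edgeR), 95 keratin-associated protein genes (9, and 1 by edgeR) and 34 bitter taste receptors (4, none by edgeR). Over all genes 13397 of 70381 had an unadjusted p under 0.05, a larger share than in any of these 3 lists. All directions given for the lists are relative to the median gene. On the spike-in scale no member of any list was called, and the median of every gene list lay above 0 except that of the killer lectin-like receptors (-0.0091), so that those of the defensins (0.18), Serpin genes (0.29), type 1 and type 2 vomeronasal receptors (0.22 and 0.38), olfactory receptors (0.35) and very long neuronal genes (0.29), among others, turned.

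**Figure D4:**
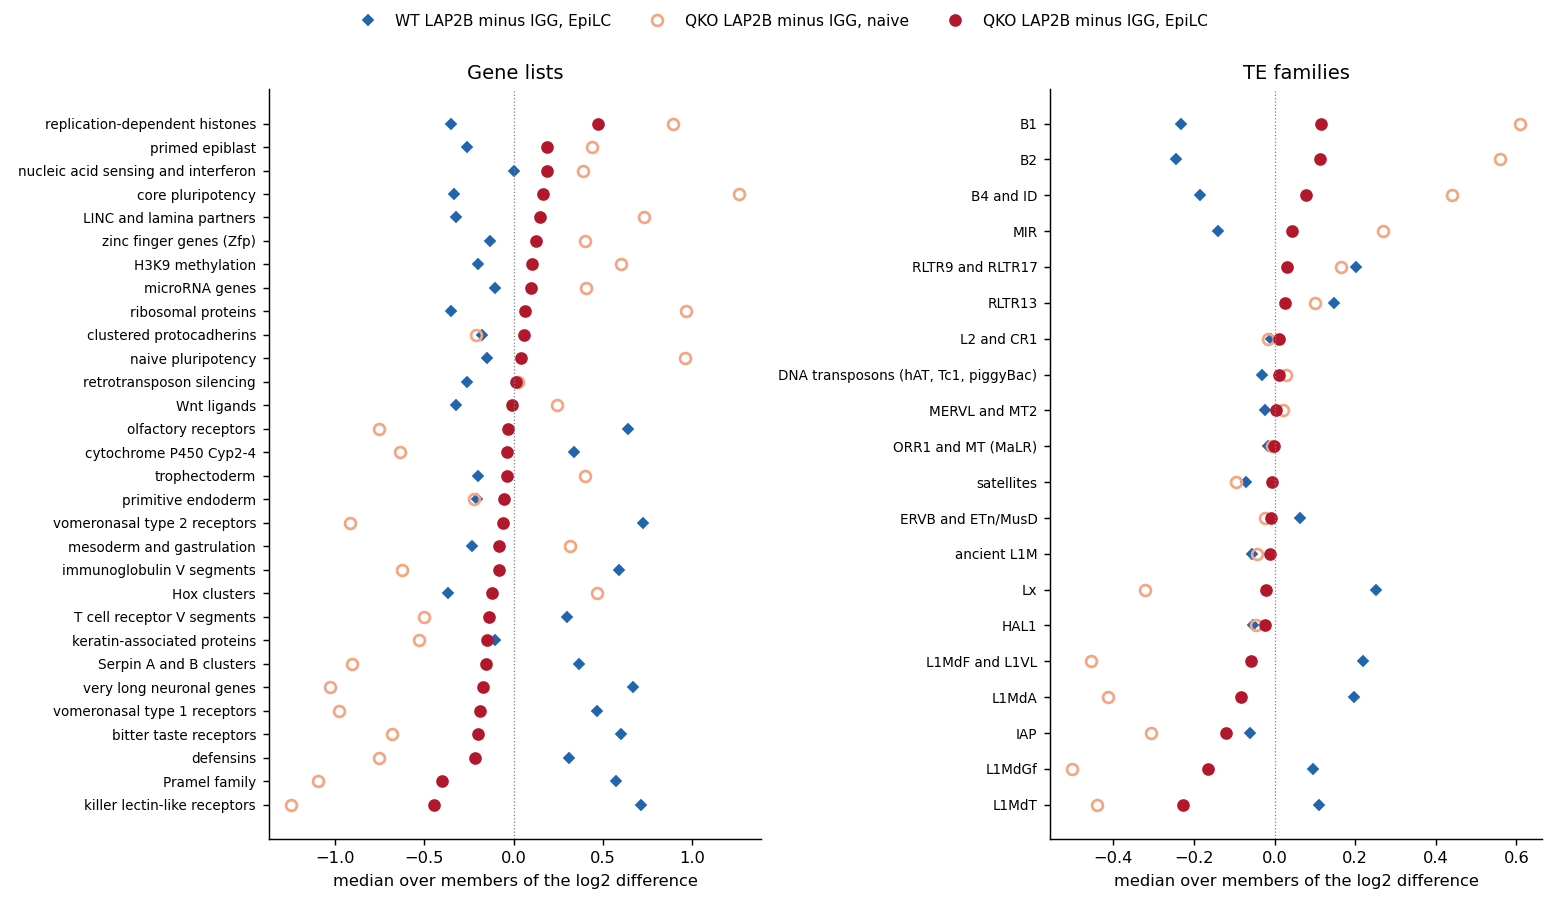
Median log2 difference, relative to the median gene or family of each library, over the members of each gene list (left) and each group of TE families (right), for QKO LAP2B minus IGG in EpiLCs (filled circles), the same in naive cells (open circles) and WT LAP2B minus IGG in EpiLCs (diamonds, which share the EpiLC IGG libraries with the filled circles). The filled circles lie nearer 0 than the open ones for most lists, from 0.47 for histones to -0.44 for killer lectin-like receptors.

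One chromosome stood apart. Over the 4092 genes of chromosome 6 the median difference was -0.23, with 17 genes called higher and 406 lower (10.3% called), which is 31.9% of all 1272 genes called lower on 5.81% of the genes tested. Each library's median over these genes, against the mean of the 6 libraries, was -0.16, -0.14 and -0.12 in QKO LAP2B and 0.05, 0.13 and 0.15 in IGG, so the groups did not overlap. Chromosomes 11 and 19, with medians of 0.10 and 0.11, were the highest. Set against the mean of all 36 libraries, the chromosome 6 level was -0.27 ± 0.01 in QKO EpiLCs, -0.37 ± 0.05 in naive QKO cells, -0.18 ± 0.0044 in TKO EpiLCs, -0.04 ± 0.01 in IGG, 0.05 ± 0.01 in LAP2B of WT EpiLCs and 0.38 ± 0.0026 in LBR KO EpiLCs (SD, n = 3 each). A WT population with trisomy 6 is among the karyotypes given, and its part in the result was not tested. Outside chromosome 6, 2764 genes were called higher and 866 lower.

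Chromosome 8, trisomic in the parent TKO line by the study's karyotype, differed less. The median log2 relative value over its genes was 1.12, 1.14 and 1.10 in QKO LAP2B and 1.10, 1.07 and 1.05 in IGG, a difference of 0.05 (exact permutation p = 0.2). After an adjustment for GC content the difference was 0.01 (exact permutation p = 0.6). On the Y chromosome 17 of 939 genes were called higher and 1 lower, 1.92% in all, below the 5.76% called over all genes.

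**Figure D5:**
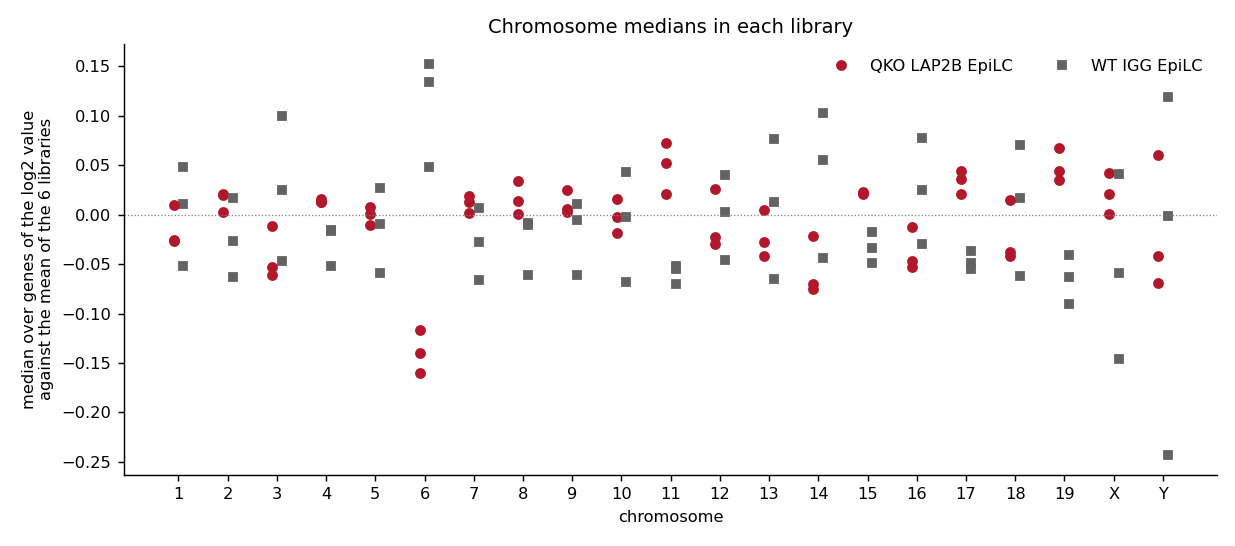
Median over each chromosome's genes of log2 coverage against the mean of the 6 libraries (vertical axis), by chromosome (horizontal axis), with a point for each of the 3 QKO LAP2B and 3 WT IGG EpiLC libraries. The groups are farthest apart on chromosome 6, with QKO LAP2B from -0.16 to -0.12 and IGG from 0.05 to 0.15.

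Over 2206 windows of 1 Mb with at least 10 tested genes the median difference had an SD of 0.17, and 169 windows lay more than 0.3 from 0. The highest on an autosome was chr8:85000001-86000000, which holds Nfix, Klf1, Calr, Lyl1 and Gcdh, at 0.68 with 47 of 69 genes called higher. It was followed by chrX:72000001-73000000, with the Xlr genes, at 0.64 (25 of 53), chr7:127000001-128000000, with Srcap, Fbrs and Prr14, at 0.59 (47 of 91), and chr10:128000001-129000000, with Stat2, Timeless and Ankrd52, at 0.57 (37 of 89). A window at chrY:90000001-91000000 reached 1.42 over 13 genes of multicopy sequence. The lowest were chr5:94000001-95000000 at -1.12 (15 of 24 lower) and chr5:95000001-96000000 at -1.05 (18 of 28 lower), both filled with Pramel genes. In naive QKO cells these high windows stood at 1.51 to 2.63 and the Pramel windows at -1.91 and -2.04. Neighbouring genes share bins and reads, so a window is closer to 1 observation than its gene count.

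Few transposable element (TE) families passed the test. Of 1225 families 1 (0.0816%) was called, and it was higher. RMER6A, an LTR of the ERVK superfamily with 4044 copies, had 1.70, 1.62 and 1.60 times the median family in QKO LAP2B and 1.33, 1.30 and 1.33 times in IGG, a difference of 0.29 ± 0.03 (SE, limma adjusted p = 0.0423). In LAP2B of WT EpiLCs it had 1.44, 1.40 and 1.39. The call was lost without any 1 of the 6 libraries. At an unadjusted p under 0.05 stood 214 families, 113 higher and 101 lower, and the libraries of the groups did not overlap for 295 families (24.1%), 162 (13.2%) higher and 133 (10.9%) lower. The difference had an SD of 0.08 over families, against 0.24 in naive cells. A family value is a mean over many copies, so this SD is not comparable with that over genes. The rank correlation of family values (Spearman) was 0.84 to 0.89 between QKO LAP2B and IGG libraries and 0.85 to 0.88 among IGG libraries, a description across families.

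Relative to the median family, no SINE, young LINE-1 or IAP family passed the adjusted threshold. Of 34 SINE families 24 were higher and none lower at an unadjusted p under 0.05 (median 0.09), including 13 of 15 B1 families and 5 of 5 B2 families. PB1D9 of the B1 group, picked after its values were seen, had 1.21, 1.22 and 1.16 against 1.10, 1.06 and 1.05. In naive cells the B1 and B2 medians were 0.61 and 0.56, and for LAP2B minus the same IGG in WT EpiLCs -0.23 and -0.24. The 3 L1MdT families had a median of -0.23, all lower at an unadjusted p under 0.05, and the 25 IAP families one of -0.12 with 10 lower, relative to the median family. Without IGG replicate 2 the IAP median was -0.068. On the spike-in scale, where the median family lay 0.35 higher in QKO LAP2B, these medians were 0.15 and 0.22. IAPEz-int, the internal part of the IAP retrovirus, also picked after its values were seen, had 2.37, 2.24 and 2.22 in QKO LAP2B against 2.83, 3.45 and 2.55 in IGG (-0.35, limma adjusted p = 0.185). Its IGG libraries spread widely, from 2.55 to 3.45, and all lay above the QKO libraries. With families divided by the library's median gene in place of the median family, 40 families passed, 3 higher and 37 lower. Among the latter were 8 of the 25 IAP, all 3 L1MdT and 1 of 2 L1MdGf families. The B1 and B2 medians were then 0.043 and 0.041, against 0.115 and 0.112 relative to the median family.

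Whether the residual pattern of EpiLCs differed from that of naive cells was tested as an interaction over 12 libraries, the stages sharing none. The QKO LAP2B minus IGG difference was not the same at the 2 stages for 23913 of 70381 genes (34%, limma adjusted p under 0.05), 12075 (17.2%) with the more positive value in EpiLCs and 11838 (16.8%) in naive cells, and for 535 of 1225 TE families (43.7%), 258 (21.1%) more positive in EpiLCs and 277 (22.6%) in naive cells. The split between directions moved with the processing, to 6549 and 11290 genes with GC adjustment, 9083 and 13261 with chromosome medians made equal and 9248 and 14074 by edgeR on recovered reads, and for TE families to 766 and 41 when scaled by the median gene. On the spike-in scale 3126 genes passed, 19 with the more positive value in EpiLCs and 3107 in naive cells, and no TE family did (2 at an unadjusted p under 0.05). Of the 2781 genes called higher in EpiLCs, 2686 (96.6%) were also above 0 in naive cells, where 62.9% of all tested genes above 0 in EpiLCs were. Their median was 0.54 in EpiLCs and 1.41 in naive cells, and 2123 of them differed between stages, 2023 with the smaller size in EpiLCs. Of the 1272 called lower, 1229 (96.6%) were also below 0 in naive cells, against 77.1% of all tested genes below 0, with medians of -0.43 and -1.07. Over all genes rho between the stages' differences was 0.52, and 0.71 over genes of at least 10 bins, a description across genes of the same clone and antibody.

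The difference in size was plain in single genes. Tnpo2 was 1.05 higher in EpiLCs and 2.31 in naive cells (interaction -1.26, limma adjusted p = 1.52e-06), and Lmna -0.00 and 1.81 (-1.82, limma adjusted p = 6.21e-08). Pramel33 differed by -1.78 in EpiLCs and -2.60 in naive cells (0.82, limma adjusted p = 0.00739). Of the 12 genes named for a higher value 11 differed between stages, 10 of them smaller in EpiLCs, and of the 12 named for a lower value 4 did. Over all tested genes 34% differed, and the 4 of 12 lie near that share.

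With the same antibody in WT EpiLCs as the reference, QKO LAP2B differed at 28030 of 70381 genes (39.8%, limma adjusted p under 0.05), 14243 (20.2%) higher and 13787 (19.6%) lower relative to the median gene. On the spike-in scale 117 were higher and 42249 lower. Tnpo2, 16.5, 16.9 and 14.6 in QKO EpiLCs, had 5.1, 5.4 and 6.09 in LAP2B of WT EpiLCs, and Ctnna2 had 292, 260 and 243 there against 119, 120 and 128 in QKO. Tnpo2 was 1.52 higher on the log2 scale (limma adjusted p = 1.08e-11) and Ctnna2 differed by -1.11 (limma adjusted p = 4.97e-12). This comparison shares its QKO libraries with the one against IGG.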

How the data were processed

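The authors aligned CUT&RUN reads with Bowtie2 2.3.5.1 to mm39 and to the yeast genome sacCer3, filtered them with SAMtools 1.10 and made coverage with deepTools, per the submitters' processing notes and the study's methods. The deposited values are a coverage signal, RPKM scaled by a spike-in constant and summed over the 1 kb bins that a gene or a TE copy touches. The constant is stated for LAP2B and LMNB1 and not for IGG, and each antibody has its own table. In each library all values checked were whole multiples of 1 step within 0.05, and counts were recovered from the deposited signal by that step. The authors' z scores and 18 further value columns were not used. Intervals from replicates cover the spread between libraries.

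Values were divided by the library's median gene (TE: mean over the copies of each of 1225 families, 3793386 copies in all, divided by the median family), and log2(value + 0.1) was tested with limma 3.58.1 in R 4.3.3 (lmFit, eBayes with trend, two-sided, Benjamini-Hochberg over all features, adjusted p under 0.05). The lowest 0.1 of 78202 genes by mean over all 36 libraries was left out, which left 70381. edgeR 4.0.16 (quasi-likelihood) on recovered counts was an alternative. Single values used exact two-sided permutation tests of 3 against 3 libraries (20 assignments). Gene coordinates (78131 genes) and sequences came from GRCm39, the assembly called mm39, with GENCODE M39. Named genes were the 12 largest rises and 12 largest falls among called protein-coding genes of at least 10 bins with no overlap between groups, 1 Mb apart, leaving out provisional symbols; called TE families; Lmna, Lmnb1, Lmnb2, Lbr and Tmpo; and the extremes of each list. Some values and sequences that these rules select are not reported here. The members and lists were chosen with earlier results of these data known. On simulated data for the main comparison over 70381 genes, limma recovered 93 of 100 2-fold and 52 of 100 1.5-fold changes. The changed genes were drawn from those with a mean of at least 100 reads, so recovery among genes with fewer was not tested. Replicates differed by more than sampling noise (chi-square per degree of freedom 3.41 to 5.53), so none was merged. Alternatives were other scalings, pseudocounts, filters, GC and chromosome adjustment, a replicate block and leaving out each library.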

Additional observations from a re-analysis of the deposited data

Results flagged for a closer look

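The EpiLC and naive differences between QKO LAP2B and WT IGG were themselves different for 23913 genes (34%) and 535 TE families (43.7%). The test was an interaction in limma at an adjusted p under 0.05. Among the genes named for a higher value, the interaction (EpiLC minus naive, log2) was -0.85 for Zfp429, -1.23 for Nfe2, -0.97 for Plxna3, -1.23 for Smim40, -1.39 for Kat8, -1.50 for Hsd17b14, -1.26 for Tnpo2, -1.65 for Adamtsl4, -0.61 for Xcr1 and -1.03 for Ankrd52, each with the larger difference in naive cells. Or14c43 had 1.60, being higher than IGG in EpiLCs and at -0.52 in naive cells.

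Among the genes named for a lower value the interaction was 0.82 for Pramel33, 0.74 for Pramel47, 0.55 for Itln1 and 0.75 for Nlrp1b, all lower than IGG by more in naive cells. At the deleted loci it was -1.82 for Lmna, -1.64 for Lmnb2 and -0.44 for Lmnb1. The naive QKO LAP2B libraries also differed from the EpiLC ones in their spread over genes, 1.12 ± 0.13 against 0.68 ± 0.04 (SD, n = 3 each), and its part in these interactions was not tested.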

How the results depend on the processing

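Of the main comparison's 4053 gene calls, 21 remained on the spike-in values as deposited, 130 genes were called with no filter on low genes, 2105 with all 18 libraries of 6 groups in 1 model, and 1105 to 6864 when 1 library was left out. For the stage difference, 3126 genes were called on spike-in values. QKO against WT LAP2B gave 42366 on spike-in values and 17789 among genes of at least 10 bins, where fewer genes were tested. The 1 TE family became 4 when scaled by the mean over families, 40 by the median gene, 0 on spike-in values (1 at an unadjusted p under 0.05), 0 with the median over copies (95) and 0 to 0 with 1 library left out (132 to 282). The 535 families that differed between stages became 18 by the mean, 807 by the median gene, 0 on spike-in values and 62 with the median over copies. The cause was not tested except where named. The QKO minus IGG differences in spike-in level, lamina contrast, spread and chromosome 8 level kept their direction under every alternative run.

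Signs turned on spike-in values for Lmna (0.45), Lmnb1 (0.12), Lama1 (0.18), Wnt2 (0.073) and Mir99ahg (0.13), where the median gene itself moved by 0.40. Lmna also turned to 0.058 with chromosome medians made equal and ran from -0.203 to 0.214 with 1 library left out, and Lbr ran from -0.027 to 0.165. Neither gene was called in any of these fits.

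With the replicate number as a block, 5719 genes were called (5958 with GC adjustment), including all 4053 without GC adjustment, but no TE family (210 at an unadjusted p under 0.05). Same-numbered QKO and IGG libraries deviated together little (r = 0.05, -0.00 and 0.06), and differently numbered ones had r from -0.07 to 0.03. With 3 libraries a group, this cannot tell whether a number marks a shared batch. The depth of 43 to 114 reads at the median gene limits calls on short genes.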
